A study of Mus musculus with 33 samples.

Results

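Metallothioneins and zinc transporters were examined in the frontal cortex of mouse offspring exposed early in life to electronic cigarette (e-cigarette) aerosol. The 9 genes were selected by symbol from both deposited count tables, of 23366 genes each. The rule compares their counts between the air, nicotine and nicotine-free groups. The treatment contrasts of these tables therefore took part in choosing them, and the members' own levels and fold changes are given as a description. No p-value is printed for them, and calls of members at a p threshold belong to that description and test nothing. The 9 members are the metallothioneins Mt1, Mt2 and Mt3, the zinc exporters (ZnT family) Slc30a1, Slc30a3 and Slc30a10, and the metal importers (ZIP family) Slc39a8, Slc39a10 and Slc39a14. All 9 passed the filter on low counts in both tables, where 15158 genes were tested in females and 15293 in males.

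RNA-Seq had been performed on 33 C57BL/6 offspring of about 1 month of age. Exposure ran through gestation and lactation, to filtered air, to aerosol of a liquid that held nicotine at 13 to 16 mg/mL, or to aerosol of a nicotine-free liquid (the air, nicotine and no nicotine groups). Samples labelled female comprised 6 air, 5 nicotine and 5 no nicotine offspring, and samples labelled male comprised 6, 6 and 5. Per the study's methods 1 pup was taken per litter, and whether this held across the sexes is not stated. Each sex had its own sequencing run, so sex and run cannot be told apart. The labels name no transgene or gene deletion in any group.

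Total counts per library ran from 19150562 to 27513174 in females and from 17845672 to 24787955 in males, and a member had between 234 and 8508 reads in a library. Of the 33 libraries, 1 went against its label: male nicotine replicate 21 had the sex-linked transcripts of a female. It was kept under its label, and several results on the male nicotine group are also given without it. Markers of cortical glutamatergic neurons were detected in every library, and so were those of striatal projection neurons, with summed levels of 1152 to 5116 CPM. Levels below are CPM, counts scaled to the size of each library after TMM (trimmed mean of M values) normalization.

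Metallothioneins are small, cysteine-rich proteins that bind zinc and copper. Zinc that is not bound in the cell activates the transcription factor MTF-1 (gene Mtf1), which binds metal response elements in the promoters of Mt1, Mt2 and Slc30a1, while Mt3 is the brain form and responds little to metals. Slc30a1 exports zinc across the cell membrane, Slc30a3 (ZnT3) loads zinc into synaptic vesicles of cortical and hippocampal glutamatergic neurons, and Slc30a10 is chiefly a manganese exporter. Slc39a10 carries zinc into the cell, and Slc39a8 and Slc39a14 also carry manganese and iron.

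Upstream sequences are shown for 3 genes with known metal response elements and for Slc39a10, the member whose level differed from air in most comparisons. Each run is the 250 bases before the annotated start in RefSeq on GRCm38.p6, read 5′ to 3′ on the gene's strand, and capitals mark the core of the metal response element (TGCACNC or TGCGCNC, searched on both strands with overlapping matches merged into 1 stretch).
Mt1, chr8:94178839-94179088, plus strand: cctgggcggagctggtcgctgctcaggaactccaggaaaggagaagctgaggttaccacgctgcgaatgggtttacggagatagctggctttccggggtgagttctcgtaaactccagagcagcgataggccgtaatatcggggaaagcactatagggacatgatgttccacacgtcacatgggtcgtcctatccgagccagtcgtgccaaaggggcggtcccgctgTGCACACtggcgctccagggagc
Mt2, chr8:94172368-94172617, plus strand: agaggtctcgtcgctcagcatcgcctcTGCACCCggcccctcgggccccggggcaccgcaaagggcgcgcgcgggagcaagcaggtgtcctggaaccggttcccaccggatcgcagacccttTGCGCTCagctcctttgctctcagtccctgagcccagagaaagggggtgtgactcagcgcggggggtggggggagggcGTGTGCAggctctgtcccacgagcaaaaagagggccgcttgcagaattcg
Slc30a1, chr1:191906531-191906780, plus strand: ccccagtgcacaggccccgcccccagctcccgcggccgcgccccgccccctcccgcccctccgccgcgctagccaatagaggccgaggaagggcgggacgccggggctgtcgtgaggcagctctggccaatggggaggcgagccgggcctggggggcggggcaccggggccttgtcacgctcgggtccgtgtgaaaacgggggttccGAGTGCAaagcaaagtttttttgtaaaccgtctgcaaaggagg
Slc39a10, chr1:46853619-46853868, minus strand: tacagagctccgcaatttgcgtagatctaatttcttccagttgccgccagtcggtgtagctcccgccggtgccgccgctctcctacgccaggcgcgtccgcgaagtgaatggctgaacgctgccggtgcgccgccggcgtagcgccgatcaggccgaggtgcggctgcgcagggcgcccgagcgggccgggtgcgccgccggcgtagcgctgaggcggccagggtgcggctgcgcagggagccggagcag
Of the 9 members, 8 had an entry, with 11 promoters in all, and Slc39a14 had none. Within the 300 bases that run from 250 before to 50 after the start, Mt2 held 4 stretches, 3 of them before the start, and Mt1 held 3, 1 of them before it. Slc30a1 and Slc30a10 held 2 each and Mt3 held 1, after its start. For Slc30a3 and Slc39a8, 1 of their 2 promoters held 1 stretch and the other none, and neither promoter of Slc39a10 held any. Among 32851 mouse promoters of this length, 25.7% held at least 1 stretch, 6.01% at least 2, 1.23% at least 3 and 0.265% at least 4. A match is a run of letters and says nothing about binding in this tissue.

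Per kilobase of exon (RPKM, scaled also to the size of the library), Mt3 had the highest level of the 9 genes, with 531 ± 44.2 RPKM in female air libraries and 509 ± 10.4 in male air libraries (mean ± SD, n = 6 each). Mt1 followed with 315 ± 29.1 and 288 ± 13.8, and Mt2 with 198 ± 30.5 and 166 ± 11.4. Slc30a3 was the highest transporter at 98.4 ± 14.0 and 90.9 ± 7.68 RPKM, ahead of Slc39a10 at 42.3 ± 3.77 and 36.6 ± 1.64. Slc30a1 (17.7 ± 1.39 and 16.8 ± 1.18), Slc30a10 (7.76 ± 0.660 and 7.61 ± 0.733), Slc39a14 (4.06 ± 0.241 and 3.82 ± 0.148) and Slc39a8 (1.98 ± 0.415 and 1.74 ± 0.0825) came below them. Each gene was more than the sum of both SDs away from its neighbours in this order, in both sexes. These SDs do not cover the choice of gene length. All exons of Slc39a14 span 10552 bases and its longest coding transcript 4926, while Slc30a10 has 5836 by both. The place of Slc39a14 below Slc30a10 therefore rests on the length used. On mm9, the build of the counts, the 3 metallothionein genes lie side by side on the plus strand of chromosome 8, Mt3 from 96676507 to 96678048, Mt2 from 96696518 to 96697467 and Mt1 from 96702989 to 96704225.

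**Figure D1:**
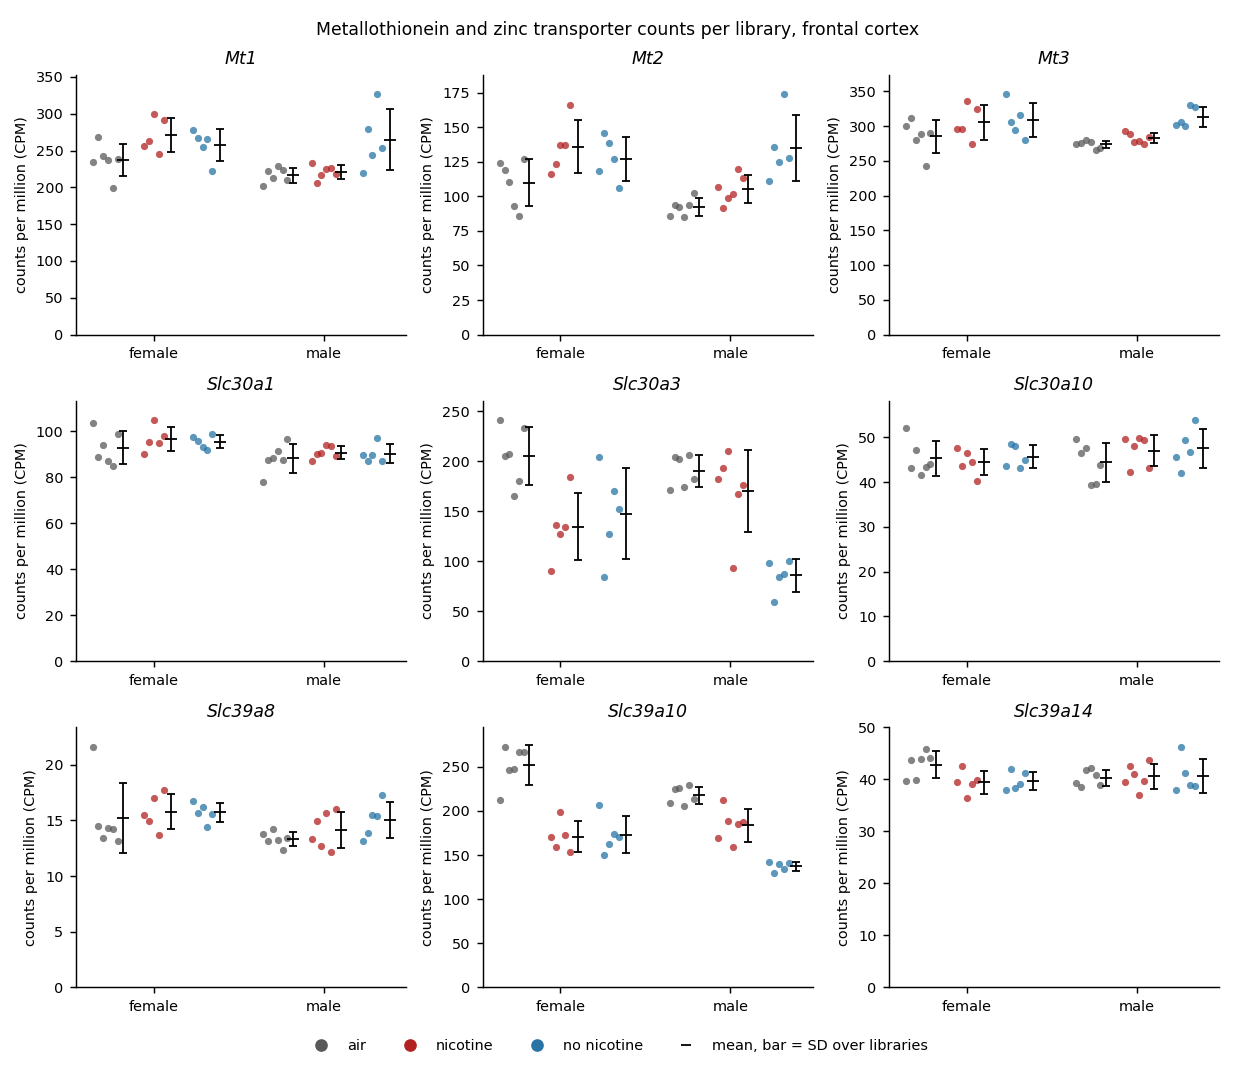
CPM of the 9 members in each of the 33 libraries by sex and exposure, each axis starting at 0 and each bar giving the mean and SD of a group. Slc39a10 sits lower in exposed groups, and so does Slc30a3 except in male nicotine, where only replicate 19 lies well below air. In males the no nicotine group stands furthest from air for both and for Mt2 and Mt3.

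In males exposed to aerosol without nicotine, the 3 metallothioneins were higher than in air. Mt2 was at 111, 125, 128, 136 and 174 CPM in these 5 libraries, against a lowest, median and highest of 85.1, 93.0 and 102 in the 6 air libraries. All 5 no nicotine libraries lay above every air library, and Mt2 was 1.46-fold higher (log2 fold change 0.55, standard error 0.0902). Mt3, the form found mainly in brain, was at 301, 302, 306, 328 and 331 CPM against 266, 275 and 280, again without overlap, with a log2 fold change of 0.20 (standard error 0.0340). Mt1 was at 219, 244, 254, 280 and 327 CPM against 201, 218 and 229, so that 4 of 5 libraries lay above all air libraries (log2 fold change 0.29, standard error 0.0724). This call was lost in 7 of 17 fits that left out 1 library, those without air replicate 30, 31, 33, 38 or 39 or no nicotine replicate 3 or 5. Replicate 5 held the highest level of all 3 genes and replicate 2 the lowest Mt1 and Mt2.

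In males exposed to aerosol with nicotine the metallothioneins stayed closer to air. Mt2 ran from 91.2 to 120 CPM with a median of 104, and 3 of 6 libraries lay above all air libraries (log2 fold change 0.19, standard error 0.0868, or 0.15 without replicate 21, which held the highest value). Mt1 averaged 221 ± 9.60 CPM (SD, n = 6) beside 217 ± 10.4 in air, and Mt3 283 ± 7.31 beside 274 ± 5.59. Without replicate 21 the means were 220 ± 10.3 for Mt1 and 285 ± 6.68 for Mt3 (n = 5). Set directly against the no nicotine males, the nicotine males had log2 differences of -0.26 for Mt1, -0.36 for Mt2 and -0.15 for Mt3, with standard errors of 0.0724, 0.0901 and 0.0340. Without replicate 21 these differences were -0.27, -0.40 and -0.14. For Mt3 the 6 nicotine libraries all lay below the 5 no nicotine libraries.

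In females the groups overlapped for each metallothionein. Mt1 was at 246, 256, 263, 292 and 300 CPM with nicotine and at 222, 255, 265, 267 and 278 without it, beside 200, 238 and 268 (lowest, median and highest) in air. Its log2 fold changes against air were 0.20 and 0.12 (standard error 0.0724 each). Mt2 was at 116, 124, 137, 137 and 166 CPM with nicotine and at 106, 119, 127, 138 and 146 without it, beside 85.8, 115 and 127 in air, with log2 fold changes of 0.31 and 0.21 (standard errors 0.110 and 0.111). Of the nicotine libraries 3 of 5 lay above all air libraries for Mt2, and of the no nicotine libraries 2 of 5. Mt3 differed from air by 0.10 and 0.11 on the log2 scale, with standard errors of 0.0682 each.

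Among the exporters, Slc30a3, which fills synaptic vesicles with zinc, was lower in male no nicotine animals and varied most of the members between libraries of each exposed group. In male no nicotine libraries it was at 59.5, 83.9, 87.0, 97.8 and 101 CPM, and in male air libraries the lowest, median and highest were 171, 192 and 206. The groups did not overlap and the level was 2.22-fold lower (log2 fold change -1.15, standard error 0.159). In male nicotine libraries 5 of 6 values lay between 167 and 210 CPM and replicate 19 was at 92.8, within the range of the no nicotine group, which gave a log2 fold change against air of -0.16 (standard error 0.147). That value was -0.15 without replicate 21 and -0.03 without replicate 19.

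Female Slc30a3 was spread over a wider range. It was at 90.1, 128, 134, 136 and 184 CPM with nicotine and at 83.8, 127, 152, 171 and 204 without it, beside 166, 206 and 241 in air. Of the nicotine libraries 4 of 5 and of the no nicotine libraries 3 of 5 lay below all air libraries, and the log2 fold changes were -0.61 (standard error 0.189) and -0.48 (0.189). Neither passed the adjusted threshold described below.

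The other exporters were near their air levels in every group. Slc30a1, a textbook target of MTF-1 like Mt1 and Mt2, averaged between 92.8 and 96.6 CPM in the female groups and between 88.2 and 90.7 in the male groups, and its 4 log2 fold changes against air lay between 0.03 and 0.06. Slc30a10 averaged between 44.4 and 47.5 CPM over the 6 groups, with log2 fold changes from -0.03 to 0.10. Exons of Slc30a1 and Slc30a10 share 8.92% and 9.13% of their bases with genes on the opposite strand (1700034H15Rik and Gm2061), and whether reads were counted by strand is not given in the sources used here.

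Slc39a10, which brings zinc into the cell, was lower than air in each of the 4 exposed groups. In females it was at 154, 159, 170, 173 and 199 CPM with nicotine and at 150, 162, 171, 174 and 206 without it, beside 212, 257 and 273 in air. All 10 exposed libraries lay below all 6 air libraries, with log2 fold changes of -0.56 and -0.54 (standard error 0.0829 and 0.0828), that is, 1.48-fold and 1.46-fold lower. In males without nicotine it was at 130, 135, 139, 141 and 142 CPM against 206, 219 and 229 in air (log2 fold change -0.66, standard error 0.0575), without overlap. Male nicotine libraries lay between these groups at 159, 186 and 212 CPM (lowest, median and highest), and 5 of 6 were below all air libraries. The log2 fold change was -0.25 (standard error 0.0542), and the same without replicate 21. Stretches of 50 bases that recur elsewhere in the mm9 genome make up 12.1% of its transcript, against at most 0.779% for any other member.

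The 2 importers that also carry manganese and iron showed smaller differences. Slc39a8 averaged between 13.3 and 15.8 CPM over the 6 groups, with log2 fold changes of 0.05 to 0.17 against air. Among the female air libraries replicate 1 stood at 21.6 CPM while the other 5 were between 13.2 and 14.5, and without it the female log2 fold changes were 0.18 with and 0.17 without nicotine, in place of 0.06 and 0.05. Slc39a14 averaged 42.9 ± 2.54 CPM (SD, n = 6) in female air, 39.4 ± 2.21 with and 39.8 ± 1.73 without nicotine (n = 5 each), and between 40.3 and 40.7 CPM in the 3 male groups.

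**Figure D2:**
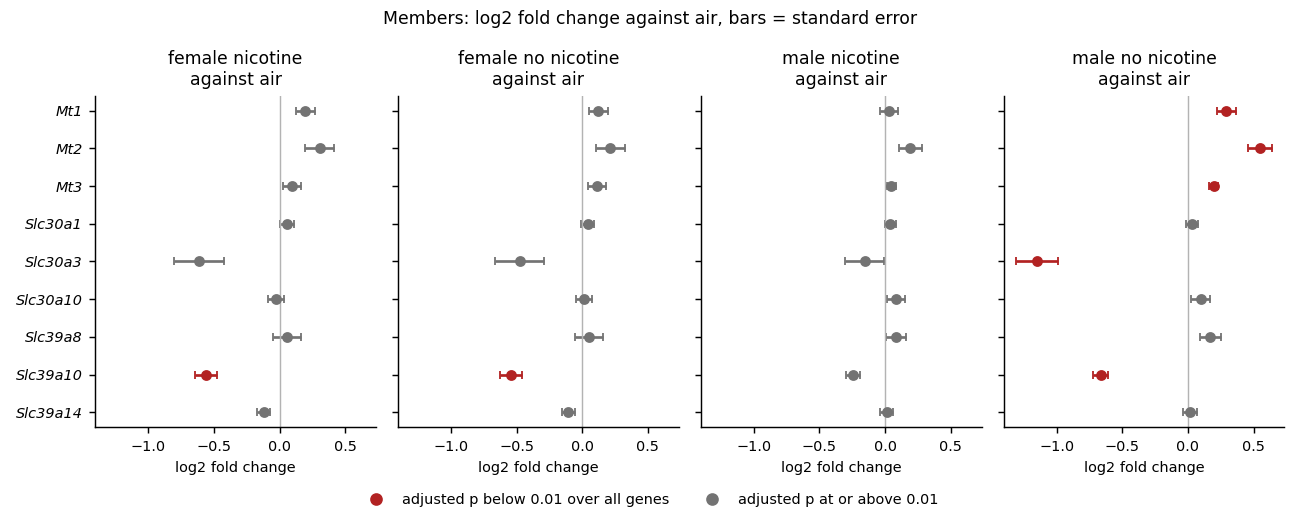
Log2 fold change of each member against air (edgeR, bars are standard errors) in the 4 exposed groups, with members past an adjusted p of 0.01 over all genes in red. Slc39a10 is left of 0 in every panel, from -0.66 to -0.25, and the 3 metallothioneins are right of 0.

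Gene by gene calls were taken from the edgeR quasi-likelihood fit of all genes, with Benjamini-Hochberg adjusted p below 0.01. In female nicotine against air, 0 members were called higher and 1 lower (Slc39a10), where 1.98% of all genes tested were called higher and 2.32% lower. In female no nicotine against air the same single member was called lower and 0 higher, beside 5.03% of genes higher and 7.03% lower. In male no nicotine against air, 3 members were called higher (Mt1, Mt2 and Mt3) and 2 lower (Slc30a3 and Slc39a10), beside 6.15% and 7.47%. These contrasts took part in choosing the members, so nothing is read from the counts.

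In male nicotine against air, 0 members and 0% of all genes were called in either direction by edgeR. At an unadjusted p below 0.05 it held 2 members (Mt2 and Slc39a10) and 14.4% of all genes, and DESeq2 called 140 genes, 1 of them a member (Slc39a10). Between nicotine and no nicotine females again 0% were called in either direction and 0 members, with 0 members and 8.35% of genes at an unadjusted p below 0.05 and 0 genes by DESeq2. Between nicotine and no nicotine males Slc30a3 (log2 difference 0.99, standard error 0.159) and Slc39a10 (0.42, standard error 0.0574) were called higher with nicotine, beside 0.222% of genes called higher and 0.0262% lower. In a fit of only these 2 groups, 0 members and 0 genes were called, and DESeq2 called 4 members. Without male nicotine replicate 21 the differences were 1.00 and 0.42, and only Slc39a10 was called. Of the 17 fits that left out 1 library, Slc30a3 was called in 7 and Slc39a10 in 14, and neither was called without no nicotine replicate 3, 4 or 5. All contrasts of this paragraph took part in choosing the members as well, so nothing is read from their counts and calls. The comparisons of a sex with air share their air libraries.

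Groups that did not overlap were counted as well. Exposed and air libraries did not overlap for 1 of 9 members in female nicotine (6.67% of all genes), 1 in female no nicotine (10.7%), 0 in male nicotine (2.05%) and 4 in male no nicotine (12.4%). The member in both female comparisons was Slc39a10, and in males the 4 were Mt2, Mt3, Slc30a3 and Slc39a10.

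The change against air was compared between the sexes in 1 fit of all 6 groups over 15105 genes. No gene passed an adjusted p of 0.01 in edgeR for either exposure (0% of genes for both), while 978 and 742 genes had an unadjusted p below 0.05 for nicotine and no nicotine, and DESeq2 called 1 and 0. For Slc39a10 under nicotine the male change minus the female change was 0.31 on the log2 scale (standard error 0.0999), and for Slc30a3 without nicotine it was -0.68 (0.259). For Mt2 the same difference was -0.13 (0.147) with and 0.33 (0.150) without nicotine. No member passed the test of this difference.

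The rest of the metal-handling genes were taken from whole families and pathways. Of 49 listed, 46 were tested in each sex, and Mt4, Slc30a8 and Gpr39 had too few reads. Against air, edgeR called 1 of 46 higher and 2 lower in female nicotine, 5 higher and 2 lower in female no nicotine, 0 in male nicotine (6 at an unadjusted p below 0.05, 0 by DESeq2) and 6 higher and 2 lower in male no nicotine, to be read beside the shares of all genes given above. At an unadjusted p below 0.05 were 13, 14, 6 and 24 of the 46 in the same order, where all genes gave 28.1%, 36.4%, 14.4% and 36%. The median log2 fold change of the 46 genes lay between 0.04 and 0.06 in these comparisons, beside 0.00 to 0.02 over all genes. None was called between nicotine and no nicotine in either sex by edgeR or DESeq2, where 4 in females and 13 in males had an unadjusted p below 0.05, against 8.35% and 20.1% of all genes.

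The called genes are given by role, and a difference between roles was not tested. Of 6 other ZnT genes Slc30a4, another vesicular zinc exporter, was the 1 called, lower in both female groups and in male no nicotine, with log2 fold changes of -0.32, -0.41 and -0.30 (edgeR adjusted p = 0.00922, 0.00137 and 0.00203). Ap3m2, a neuronal subunit of the AP-3 adaptor that sorts Slc30a3 to synaptic vesicles, was the 1 of 7 AP-3 genes called, lower in the same 3 comparisons. It averaged 191 ± 10.4 CPM in female air (SD, n = 6) against 155 ± 5.05 with and 157 ± 9.25 without nicotine, and 180 ± 6.40 in male air against 148 ± 6.26 without nicotine (log2 fold changes -0.30, -0.28 and -0.29; edgeR adjusted p = 0.000953, 0.000900 and 0.000164). Some uncalled genes of both lists were also below air: in female nicotine, female no nicotine and male no nicotine 2, 2 and 2 of the 6 ZnT genes and 4, 1 and 4 of the 7 AP-3 genes were lower at an unadjusted p below 0.05, the called gene included. Higher at that threshold were 0, 0 and 1 of the ZnT genes and 0 of the AP-3 genes. Log2 fold changes were above 0 for 2, 1 and 3 of the 6 ZnT genes and 1, 2 and 2 of the 7 AP-3 genes. Slc30a2 had log2 fold changes of -0.24, -0.43 and -0.46 there (standard errors 0.164, 0.165 and 0.127), and Ap3b1 of -0.12, -0.09 and -0.14 (0.0553, 0.0551 and 0.0404). None of the 11 other ZIP importers was called in any comparison with air by edgeR, with 1, 3, 0 and 4 of them at an unadjusted p below 0.05 in the order above. DESeq2 called Slc39a13 in female no nicotine. Mtf1 itself was not called, with log2 fold changes of 0.10, 0.04, -0.02 and 0.05 (standard errors 0.0431 to 0.0449).

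Copper and iron genes that were called were all higher. Of all 12 iron genes, 8 in female and 7 in male no nicotine had a log2 fold change above 0. In each of these comparisons 1 iron gene was lower at an unadjusted p below 0.05 in edgeR. Trf, the serum iron carrier that oligodendrocytes make in brain, averaged 267 ± 26.8 CPM in female air, 416 ± 42.2 with and 392 ± 46.3 without nicotine, and in males 299 ± 40.0 in air, 331 ± 32.3 with and 417 ± 92.4 without nicotine. The log2 fold changes were 0.64 and 0.55 in females and 0.48 in male no nicotine (edgeR adjusted p = 0.000709, 0.000841 and 0.00565). Heph, a ferroxidase of iron export, rose without nicotine by 0.82 in females and 0.51 in males, and Steap2, a metalloreductase, by 0.63 and 0.42, with adjusted p in edgeR of 0.000841, 0.00115, 0.00180 and 0.00138. Sod1, the copper and zinc superoxide dismutase, rose by 0.23 and 0.24 in the same groups (adjusted p = 0.00459 and 0.00168). The copper pump Atp7b (0.54, adjusted p = 0.00700) and the copper chaperone Cox17 (0.18, adjusted p = 0.00805) were called in male no nicotine, and the copper transporter Slc31a2 (0.25, adjusted p = 0.00944) in female no nicotine. Some of these calls were lost when single libraries of the sex were left out, each time with any of several libraries: Slc30a4 in female nicotine was called in 6 of 16 such fits, Sod1 and Slc31a2 in female no nicotine in 10 and 3 of 16, and Trf, Atp7b and Cox17 in male no nicotine in 10, 10 and 7 of 17.

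**Figure D3:**
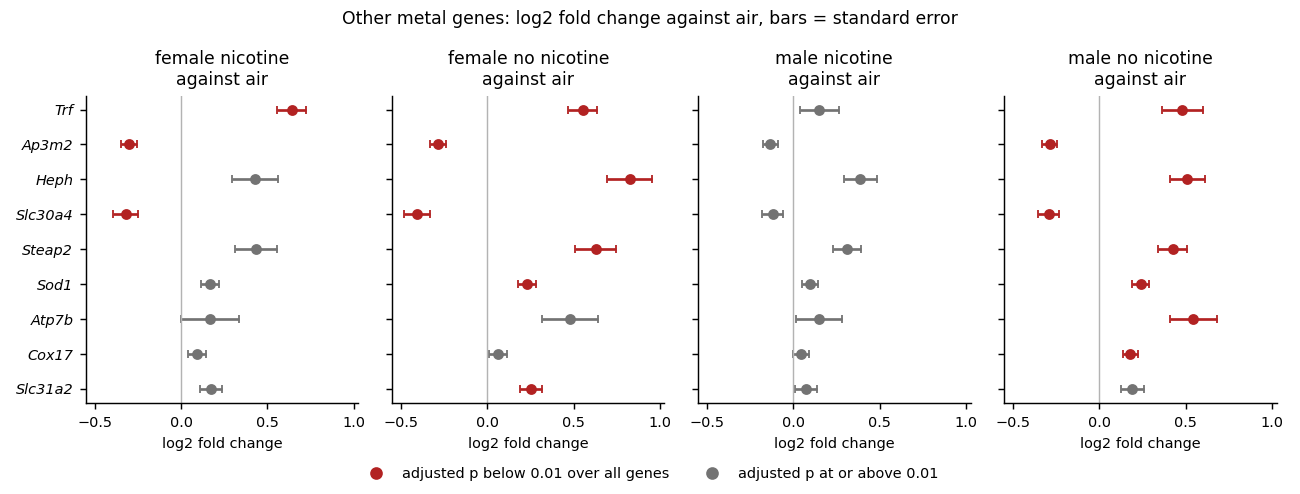
Log2 fold change against air with standard errors for the 9 other metal genes called in at least 1 comparison with air, calls at adjusted p below 0.01 in red. Ap3m2 and Slc30a4 lie left of 0 and the copper and iron genes right of 0.

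Markers of the cell types in the tissue moved in the same comparisons. The 12 cortical glutamatergic neuron markers had a median log2 fold change of -0.61 in female nicotine, -0.88 in female no nicotine, -0.38 in male nicotine and -0.91 in male no nicotine, with 1, 10, 0 and 10 of 12 called lower by edgeR and 11, 12, 10 and 10 at an unadjusted p below 0.05. Their summed level was 3589 to 4722 CPM in female air, 2496 to 3314 with and 1549 to 3435 without nicotine, and 3427 to 4176 in male air, 2462 to 3523 with and 1291 to 2478 without nicotine. In bulk tissue, fewer cells of a type and less RNA per cell cannot be told apart. Of the 10 myelin markers 10, 9, 0 and 9 were called higher in the same order, and of the 11 striatal projection neuron markers 4, 2, 0 and 3, with summed myelin levels of 8720 to 10577 CPM in female air and 10069 to 12407 in male air against 14277 to 18182, 11734 to 17689, 10297 to 15930 and 14698 to 25159 in the exposed groups. At an unadjusted p below 0.05, 10, 10, 0 and 10 myelin and 11, 9, 1 and 11 striatal markers were higher. Median log2 fold changes were 0.70, 0.61, 0.18 and 0.69 for myelin and 0.75, 0.46, 0.33 and 0.72 for striatal markers.

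Astrocytes hold much of the Mt1 and Mt2 in brain. Of their 12 markers 0, 1, 0 and 2 were called, all higher, and 2, 3, 1 and 6 had an unadjusted p below 0.05 (in the last 4 higher and 2 lower), with median log2 fold changes of 0.04, 0.07, 0.02 and 0.09, and in males their summed level was 12941 to 14847 CPM in air and 12797 to 14913 without nicotine. Endothelial markers gave 0, 0, 0 and 1 of 12 called higher and 0, 0, 1 and 3 at an unadjusted p below 0.05, and microglial (12) and meningeal (10) markers gave 0 in each comparison, with 4 microglial markers in male no nicotine and 4 meningeal markers in female no nicotine at an unadjusted p below 0.05. Choroid plexus markers were called higher in 4 of 10 in male no nicotine, where the summed level was 34.8 to 1004 CPM against 16.6 to 47.5 in air, and Folr1 and Slc4a5 were at 0 reads in some libraries. The 1004 CPM came from replicate 7 alone, and the other male no nicotine libraries were at 34.8, 47.6, 48.3 and 64.2. Male no nicotine replicate 5, the library with the highest Mt1, Mt2 and Mt3 of its group, also had its highest summed myelin (25159 CPM), striatal (5116), astrocyte (14913) and microglial (1362) levels and its lowest choroid plexus level (34.8). The part of any of these cell types in the members' differences was not tested, and the fits that follow cannot assign it.

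Putting the cortical neuron marker score (mean log2 CPM of the 12 markers) in the fit as a covariate left 0 members called in each comparison, while calls over all genes went from 651, 1829 and 2084 to 0, 0 and 13 in female nicotine, female no nicotine and male no nicotine. The log2 fold change of Slc39a10 was then -0.28, -0.13 and -0.53, and that of Slc30a3 in male no nicotine -0.79. Mt2 in male no nicotine was 0.59 (standard error 0.169). The score itself was lower in exposed groups, so exposure and score cannot be told apart in this fit. With the astrocyte score as a covariate, Mt2, Mt3, Slc30a3 and Slc39a10 were still called in male no nicotine and Mt1 was not, with a log2 fold change of 0.27 (standard error 0.0810) in place of 0.29, and Slc39a10 was still called in both female comparisons with air. Astrocyte markers also differed from air, with median log2 fold changes of 0.07 and 0.09 in female and male no nicotine. Exposure and this score cannot be fully told apart either. In the same fit the uncalled metallothionein values in female no nicotine went from 0.12 to 0.0027 for Mt1, from 0.21 to 0.06 for Mt2 and from 0.11 to 0.0020 for Mt3. Those in female nicotine went from 0.20 to 0.15, from 0.31 to 0.25 and from 0.10 to 0.06.

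How the members varied between libraries of the same group was examined on deviations of log2 CPM from the group mean, with 18 relations tested by permutation and adjusted together. Mt1 and Mt2 deviated together in females (Pearson r = 0.62, permutation p = 0.0201, adjusted 0.0452; Spearman rho = 0.49, p = 0.0755, adjusted 0.151; n = 16) and in males (r = 0.78, p = 0.00506, adjusted 0.0130; rho = 0.59, p = 0.0220, adjusted 0.0565; n = 17). Without the 2 libraries farthest from the median in Mt2, r was 0.44 and 0.40, so the relation rests largely on them. Mt1 and Mt3 gave r = 0.92 in females (permutation p = 3e-05, adjusted 0.00054; rho = 0.90, p = 0.00012, adjusted 0.00108; 0.89 without the 2 farthest) and r = 0.47 in males (permutation p = 0.239, adjusted 0.307; rho = 0.24, p = 0.445, adjusted 0.572). Mt2 and Mt3 gave r = 0.50 and 0.26, neither past an adjusted permutation p of 0.05 (0.115 and 0.549; rho = 0.39 and 0.11, adjusted 0.273 and 0.772).

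In females the metallothioneins also followed the astrocyte score, with r = 0.83 for Mt1, 0.72 for Mt2 and 0.85 for Mt3 (permutation p = 0.00045, 0.00499 and 0.00026, adjusted 0.00203, 0.0130 and 0.00156). The rank correlations were 0.76, 0.65 and 0.81 (permutation p = 0.00273, 0.0138 and 0.00069, adjusted 0.00983, 0.0414 and 0.00414), and r without the 2 farthest libraries was 0.73, 0.54 and 0.76. In males r was 0.17, 0.32 and 0.50 (permutation p = 0.441, 0.160 and 0.0258, adjusted 0.503, 0.239 and 0.0515), with rho of 0.09, 0.35 and 0.48 (adjusted permutation p = 0.772, 0.277 and 0.0760). The difference between the sexes in these relations was not tested.

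Slc39a10 followed the cortical neuron score in females (r = 0.88, permutation p = 6e-05, adjusted 0.00054; rho = 0.86, p = 0.00011, adjusted 0.00108; 0.81 without the 2 farthest libraries), and in males r was 0.39 (permutation p = 0.0689, adjusted 0.115; rho = 0.36, p = 0.166, adjusted 0.273). Slc30a3, although a gene of the same neurons, gave r = 0.16 in females and 0.36 in males (permutation p = 0.635 and 0.208, adjusted 0.635 and 0.288; rho = 0.05 and 0.25, adjusted 0.883 and 0.523), and -0.10 in males without the 2 farthest libraries. Slc30a3 and Slc39a10 deviated together in males (r = 0.75, permutation p = 0.00161, adjusted 0.00580; rho = 0.71, p = 0.00245, adjusted 0.00983; 0.63 without the 2 farthest), and in females r was 0.24 (permutation p = 0.447, adjusted 0.503; rho = 0.11, p = 0.720, adjusted 0.772).

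**Figure D4:**
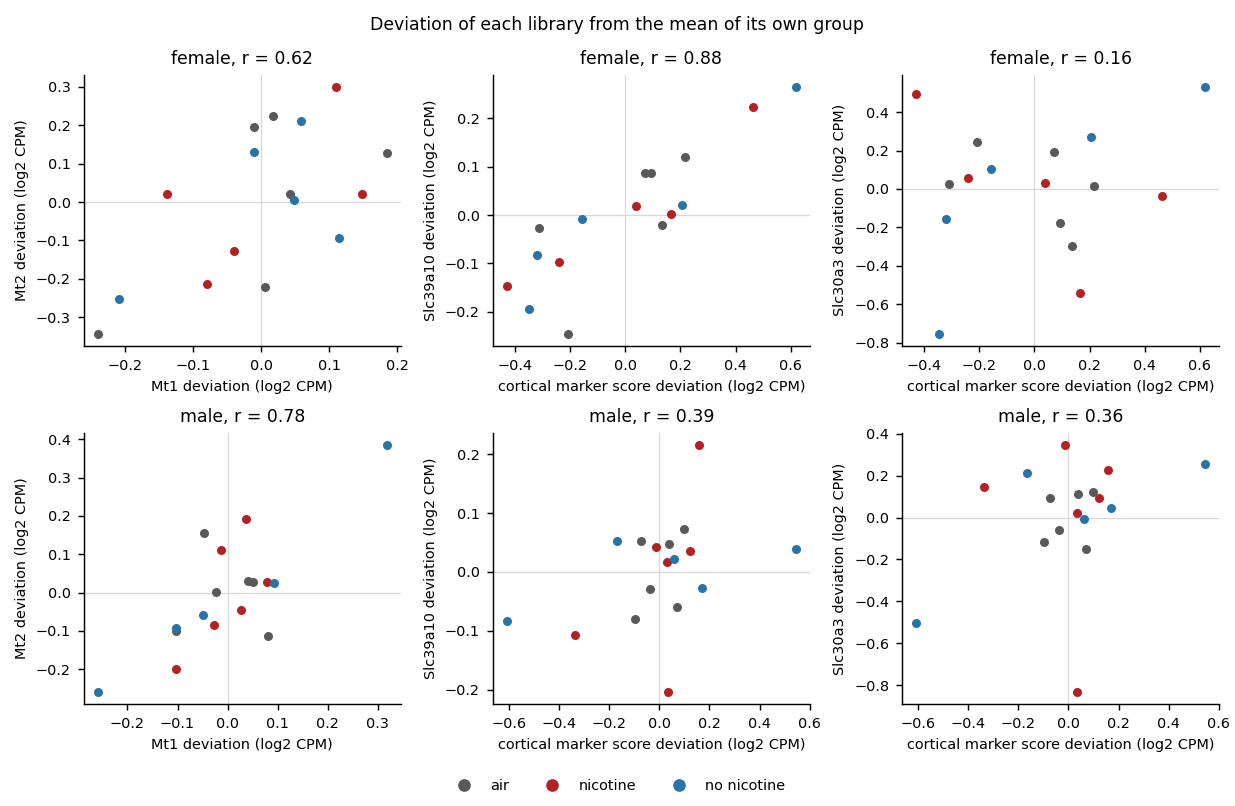
Deviation of each library from the mean of its own group in log2 CPM, females above and males below, for Mt2 against Mt1 and for Slc39a10 and Slc30a3 against the cortical neuron marker score. Slc39a10 climbs with the score in females (r = 0.88) and Slc30a3 shows a scattered cloud in both sexes (r = 0.16 and 0.36).

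The genes whose deviations were most like those of each member in both sexes were sought among 13720 genes, ranked by the lower of the 2 r values, as a description without p. For Mt1 they were Hadh, a mitochondrial fatty acid oxidation enzyme (r = 0.82 in 16 females and 0.92 in 17 males), and Hepacam, an adhesion protein of astrocytes (0.90 and 0.78). For Mt2 they were Atp6v0e (0.80 and 0.82), a subunit of the proton pump, and again Hadh (0.79 and 0.85). For Mt3 they were Car2, a carbonic anhydrase (0.86 and 0.81), and Epas1, an oxygen-responsive transcription factor (0.80 and 0.82).

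Slc30a3 had the highest likeness of any member, with Olfm1, a secreted neuronal glycoprotein (r = 0.93 and 0.95), and Pcyt1b, an enzyme of phosphatidylcholine synthesis (0.90 and 0.89). Slc39a10 was most like Sstr3, a somatostatin receptor (0.80 and 0.77), and the protocadherin Pcdha12 (0.82 and 0.75). Slc30a1 was most like Tob1 (0.67 and 0.63) and Kdelr1 (0.67 and 0.62), and Slc30a10 like Plxnb2 (0.75 and 0.84) and Ttll12 (0.72 and 0.80). Slc39a8 was most like Vwa1 (0.79 and 0.81) and Nos2 (0.82 and 0.76), and Slc39a14 like Jhdm1d (0.73 and 0.74) and Zcchc2 (0.72 and 0.80). Library composition and depth are shared by both genes of each pair.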

How the data were processed

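Frontal cortex RNA was sequenced as single reads. Per the labels and the study's methods, the authors mapped reads to the mm9 mouse transcriptome with Bowtie, removed PCR duplicates with SAMtools and counted reads per gene with HTSeq. They deposited raw counts, 1 table per sex, which were used here. The normalized tables were not used. Names matched 33 of the 34 columns of raw counts to a sample, and 1 column was not used. Whether counting used strand is not given in the sources used here.

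Genes with a CPM sum of at least 5 over a table were tested with edgeR 4.0.16 (R 4.3.3): TMM, quasi-likelihood test, the 3 groups of a sex in 1 fit, Benjamini-Hochberg adjustment over all genes tested and a threshold of 0.01. Replicates are separate offspring, and precision is limited by their number and by counting error. RPKM used all exon bases of a gene in the GENCODE annotation of mm9. Log2 CPM had a prior count of 1. Correlations used 100000 permutations within groups (two-sided). The fits were tested on simulated data. Alternatives were DESeq2 1.42.0, other scalings and filters, fits of 2 groups, marker scores as covariates, a replicate block and leaving out each library. Named genes are the members, Mtf1, up to 10 other metal genes called against air by smallest p, and the 2 genes most alike to each member, among genes with a mean CPM of at least 1. Promoters come from RefSeq (GRCm38.p6). The members, lists and tests were chosen with earlier results of these data known. Figures were drawn with matplotlib.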

Additional observations from a re-analysis of the deposited data

Results flagged for a closer look

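In 114 combinations of a member, Mtf1 or other called metal gene with a group of 5 or 6 libraries, 8 had 1 library whose gap to the nearest other was too large for the range of its group by Dixon's 95% criterion, and chance flags about 1 in 20. For the members, Slc30a3 was at 92.8 CPM in male nicotine replicate 19 while the other 5 libraries ran from 167 to 210 CPM, Slc39a8 was at 21.6 CPM in female air replicate 1 (others 13.2 to 14.5), and Slc30a1 was at 97.2 CPM in male no nicotine replicate 5 (others 87.0 to 89.7). The same male no nicotine library held the highest Mt1, Mt2 and Mt3 of its group.

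Among the other metal genes, Mtf1 was at 48.8 CPM in male no nicotine replicate 2 (others 52.9 to 54.3) and Trf at 270.1 CPM in male nicotine replicate 17 (others 330.4 to 364). Heph was at 12.7 CPM in female nicotine replicate 3 (others 16.0 to 16.8) and at 13.0 CPM in male no nicotine replicate 7 (others 16.2 to 17.1). Sod1 was at 25.4 CPM in male nicotine replicate 21 (others 28.4 to 30.1), the library whose sex-linked transcripts go against its label.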

How the results depend on the processing

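Of 1350 member fold changes recomputed under the alternatives, 1339 moved by less than 1 SD between libraries of a group and 11 moved more, all 11 with the cortical neuron marker score as covariate, and none that was called changed sign. With that covariate 0 members were called in each comparison, against 1, 1 and 5 in female nicotine, female no nicotine and male no nicotine and 2 between the male nicotine and no nicotine groups, and other metal genes fell to 0, 0 and 1 (Slc31a1) from 3, 7 and 8. Member fold changes in that fit that moved by more than 1 SD were, in female nicotine, Slc39a10 -0.28, in female no nicotine, Mt2 -0.04, Mt3 0.25 and Slc39a10 -0.13, and in male no nicotine, Mt3 0.25, Slc30a3 -0.79, Slc30a10 0.26, Slc39a8 0.44, Slc39a10 -0.53 and Slc39a14 -0.11. Between the male nicotine and no nicotine groups Slc39a8 was -0.23.

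Counts also moved under other settings. Over all genes DESeq2 called 1319, 140 and 452 in female nicotine, male nicotine and between the exposed male groups, against 651, 0 and 38. DESeq2 called 1 member in male nicotine (Slc39a10) and 4 between male nicotine and no nicotine (Mt2, Mt3, Slc30a3 and Slc39a10), where fits of only the 2 groups called 0 and the astrocyte covariate left 1. Fits of only the 2 groups called 5 other metal genes in male no nicotine against air, and 4 members, with the call of Mt1 lost. Leaving out 1 library gave 1 member in both female comparisons with air, 0 in male nicotine, 4 to 5 in male no nicotine, 0 to 2 between male nicotine and no nicotine and 0 between the female exposed groups. For other metal genes it gave 2 to 4, 5 to 8, 0 and 5 to 9 against air and 0 between the exposed groups of either sex. The male nicotine against no nicotine calls fell to 0 without no nicotine replicate 3, 4 or 5 and to 1 (Slc39a10) without air replicate 31, 33 or 37 or nicotine replicate 16, 17, 21 or 22, so that Slc30a3 lost its call in 10 of these 17 fits, with log2 differences of 0.89 to 1.12. Mt1 in male no nicotine was called in 10 of 17 such fits (log2 0.20 to 0.35), lost without air replicates 30, 31, 33, 38 and 39 and no nicotine replicates 3 and 5. The 5 other metal genes were left without male air replicate 30, 31 or 38 or no nicotine replicate 4.

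Signs turned in 63 of the 1350 member values, 0 of them called, 42 between exposed groups and 21 against air. Of the 21, 7 came with the cortical covariate (Mt2, Slc30a10 and Slc39a8 in female no nicotine, Slc39a8 in female nicotine, Slc30a3 and Slc39a14 in male nicotine and Slc39a14 in male no nicotine), 3 with the astrocyte covariate, 1 with the replicate block and 10 on leaving out a library (Slc30a1, Slc30a10 and Slc39a14). Among the other genes, directions turned for Atp7b in female nicotine (log2 fold change -0.15) and Mtf1 in female no nicotine (-0.058) with the cortical covariate, and for Mtf1 in male nicotine when 1 library was left out (-0.046 to 0.0027, the latter without replicate 21), all genes that were not called there. The difference between the sexes called 0 listed genes under each alternative run for it. The female groups share replicate numbers 1 to 6, but a pairing was not established: deviations of same-numbered libraries correlated at -0.36 to 0.32, and 7 of 16 libraries correlated best with their own number. With the replicate block the female comparisons with air called 0 and 1 members, against 1 and 1, and 136 and 736 genes in all, against 651 and 1829, with Slc39a10 at -0.57 and -0.55. Male groups share no numbers.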

Other observations

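The metallothionein counts are high for the length of these genes. The exons of Mt1, Mt2 and Mt3 span 753, 556 and 538 bases of the mm9 annotation, which leaves 1408, 1014 and 978 distinct start positions for a 50-base read when both strands are counted. In all 33 libraries each of the 3 genes had more reads than that, with 3663 to 7218 reads for Mt1, 1590 to 4107 for Mt2 and 5122 to 8508 for Mt3. Slc30a3, with 4080 such positions, exceeded them in 13 libraries (1371 to 5340 reads), and the other 5 members stayed below theirs in every library. If at most 1 read per position and strand is kept, such counts cannot be reached. How the removal of duplicates was applied to these tables was not tested.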
